A study of Mus musculus with 9 samples.

Results

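The genes described here code for receptors that bind the constant part of IgE, IgG or IgM, measured in splenic follicular B cells of the mouse. They are Fcer2a, Fcgr2b and Fcmr, which B cells carry, Fcer1g, Fcgr3, Fcgr1 and Fcgr4, which belong mainly to myeloid and natural killer cells, and Fcgrt, the transport receptor. They were chosen by name, 8 of the 22180 genes that the array's annotation named, and each had 1 probe set with a single symbol, which gave its value. On the filter for dim genes, which kept a gene brighter than the array median on 3 or more of the 9 arrays, 7 of the 8 were tested among 12170 genes. Fcgr4 passed the median on 1 array and is given as levels alone. Fcgr2b, Fcgr3, Fcgr4, Fcer1g and Fcmr lie on chromosome 1, Fcgr1 on chromosome 3, Fcgrt on chromosome 7 and Fcer2a on chromosome 8.

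Follicular B cells are naive B cells that recirculate between lymphoid organs. They came from polyclonal mice aged 6 to 12 weeks with 1 of 3 heavy chain genotypes. In Ighε/ε mice both alleles bear the name of the IgE constant region, in Ighγ1/γ1 mice that of the IgG1 constant region, and Ighwt mice are wild-type. All 3 genotypes also carried VJk5, which the labels do not explain, and the labels say neither how the alleles were built nor which surface markers gated the sort. Each genotype had 3 single-colour arrays, called replicates 1 to 3 below. The design calls the replicates independent without naming separate animals. The p-values therefore reflect only the spread of samples within genotypes, pooled over the 3 genotypes and moderated across genes. That spread may be technical. The title of the series links heavy chain isotype to B cell fate, and the comparisons ask whether the receptors for these isotypes differ in level between the genotypes.

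Fc receptors let a cell sense antibody through its constant region. Fcer2a codes for CD23, a lectin that binds IgE with low affinity and is shed by the protease ADAM10. Fcgr2b codes for FcγRIIB, the inhibitory IgG receptor, which recruits the phosphatase SHIP-1 when it is brought together with the B cell receptor. Fcmr codes for the IgM receptor of B cells, earlier called Faim3 or Toso. Fcgr1, Fcgr3 and Fcgr4 code for activating IgG receptors that signal through the γ chain encoded by Fcer1g, and Fcgrt codes for the heavy chain of FcRn, which pairs with β2-microglobulin and returns IgG from endosomes to the cell surface.

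The 8 B cell markers that had a probe set had mean log2 signals of 8.47 to 9.13 over the 9 arrays, and the array medians lay between 3.53 and 3.69. The 6 T cell markers had means of 2.79 to 3.20, and none of them was tested. Markers of macrophages and monocytes were highest on ε/ε replicate 1, followed for many of them by ε/ε replicate 2. The mean of these 21 markers was 5.74 there, 4.07 and 3.74 on ε/ε replicates 2 and 3, 3.44 to 3.59 on the γ1/γ1 arrays and 3.47 to 3.53 on the wild-type arrays. Their summed signal on the log2 scale ranged from 8.40 to 11.25 in ε/ε, from 8.03 to 8.18 in γ1/γ1 and reached 8.08 at most in wild-type. ε/ε replicate 1 was the highest of the 9 arrays for 18 of the 21 markers. The same held for 15.2% of all genes tested. Among the other 8 arrays ε/ε replicate 2 was the highest for 10 of the 21, with Hmox1 at 6.09, C1qb at 6.13 and Csf1r at 5.15. ε/ε replicate 1 and γ1/γ1 replicate 1 had Xist signals of 5.25 and 4.53, against 10.37 to 10.79 on the other 7 arrays.

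Fcmr, the IgM receptor gene (probe set 17216976), was the only receptor gene with a difference that passed in limma, and it fell in ε/ε cells against both other genotypes. Its log2 signal was 7.27, 8.01 and 7.50 on the ε/ε arrays, 8.83, 9.58 and 9.31 on the γ1/γ1 arrays, and 9.66, 9.19 and 9.35 on the wild-type arrays. All 3 ε/ε arrays lay below all 6 of the others, while the γ1/γ1 and wild-type arrays overlapped. Group means ± SD (n = 3) were 7.59 ± 0.38 for ε/ε, 9.24 ± 0.38 for γ1/γ1 and 9.40 ± 0.24 for wild-type.

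Against wild-type Fcmr fell by 1.81 on the log2 scale (SE 0.24, 95% confidence interval -2.35 to -1.27, limma adjusted p = 0.00397), or 3.50-fold. By the size of its fall it was the 37th of the 12170 genes tested, and by p-value the 63rd. Against γ1/γ1 it fell by 1.65 (SE 0.24, interval -2.18 to -1.11, adjusted p = 0.00921), or 3.13-fold. The difference of γ1/γ1 from wild-type was -0.16 (interval -0.70 to 0.38, adjusted p = 0.920). Limma's F test over the 3 genotypes gave an adjusted p of 0.00673. With only the 6 ε/ε and γ1/γ1 arrays in the fit, the fall against γ1/γ1 kept its size and had an adjusted p of 0.0548. In RNA from a sorted population, fewer cells that carry a transcript and less of it per cell cannot be told apart.

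The fall of Fcmr did not rest on the array with the high macrophage markers. Without ε/ε replicate 1 it was -1.64 against wild-type (SE 0.26, adjusted p = 0.0154) and -1.48 against γ1/γ1 (adjusted p = 0.0306). With each of the 9 arrays left out in turn, the adjusted p stayed between 0.00439 and 0.0228 against wild-type. Marginal zone B cells are a splenic subset next to the follicular cells, and some of their markers differed between the genotypes. The mean of these 8 genes was 5.43 to 5.60 on the ε/ε arrays, 4.99 to 5.12 on the γ1/γ1 arrays and 4.88 to 4.92 on the wild-type arrays. In ε/ε against wild-type Dtx1 and Myof rose by 1.08 and 1.68 (limma adjusted p = 0.00506 and 0.00378), where 2.33% of all genes tested passed as higher. Asb2 also passed, but it lay above the array medians on 3 arrays, those of ε/ε, so that it was tested only through the group where it was high. Cr2, Cd9 and Cd1d1 differed from wild-type by 0.21, 0.065 and -0.17 (limma adjusted p = 0.309, 0.873 and 0.512), and from γ1/γ1 by -0.20, -0.099 and -0.26. Cd36 differed by 0.82 from wild-type (adjusted p = 0.0829). Against γ1/γ1, 3 of the 7 markers tested passed as higher in ε/ε and 0 as lower, where 1.02% of all genes tested passed as higher. These were Cd36 at 1.76, Dtx1 at 0.72 and Asb2 at 0.99 (limma adjusted p = 0.00879, 0.0397 and 0.0352), with the same limit for Asb2. From wild-type, γ1/γ1 differed by -0.94 for Cd36 and by 0.36 for Dtx1 (limma adjusted p = 0.482 and 0.716). The Cd36 difference between ε/ε and γ1/γ1 thus includes a γ1/γ1 mean below that of wild-type. The part of marginal zone B cells in the fall of Fcmr was not tested.

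**Figure D1:**
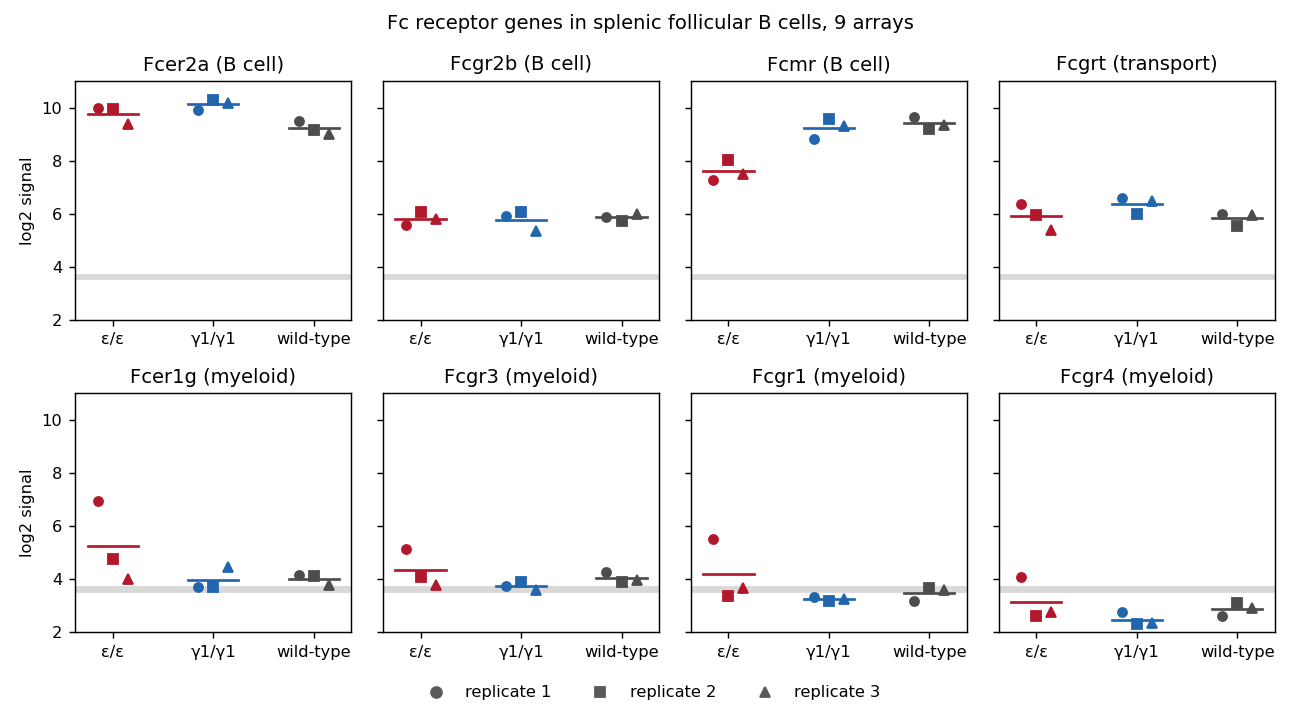
Log2 signal (vertical axis) of the 8 Fc receptor genes on each of the 9 arrays, by genotype (horizontal axis). Symbols mark the replicate number, bars the mean of 3 arrays and the grey band the range of the array medians, 3.53 to 3.69. The Fcmr arrays of ε/ε lie at 7.27 to 8.01, below the other 6 at 8.83 to 9.66, and each of the 4 myeloid genes has its highest value on ε/ε replicate 1.

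Counted together, 1 of the 7 receptor genes tested passed between ε/ε and wild-type, the fall of Fcmr, where 6.34% of all genes tested passed, 2.33% higher and 4.02% lower in ε/ε. Against γ1/γ1 it was again 1 of 7, against 2.66% of all genes, 1.02% higher and 1.64% lower in ε/ε. These comparisons share the ε/ε arrays. The share of higher genes among all calls depended on the scaling, at 36.7% against wild-type and 38.3% against γ1/γ1 as deposited, 57.8% and 53.4% under quantile normalization, and 45.6% and 54.5% with arrays centred on their medians. Between γ1/γ1 and wild-type 0 of 7 passed in limma, 1 had an unadjusted p under 0.05 (Fcer2a), and 0.0411% of all genes passed, 0.0247% higher and 0.0164% lower in γ1/γ1. In the F test 1 of 7 passed, against 4.11% of all genes. The groups did not overlap for 1 of the 7 genes between ε/ε and wild-type (28.4% of all genes tested), for 2 between γ1/γ1 and wild-type (12.4%) and for 2 between ε/ε and γ1/γ1 (21.1%). The median difference of the 7 was 0.29, -0.11 and 0.044 in the same order, beside -0.013, -0.018 and -2.8e-05 over all genes.

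**Figure D2:**
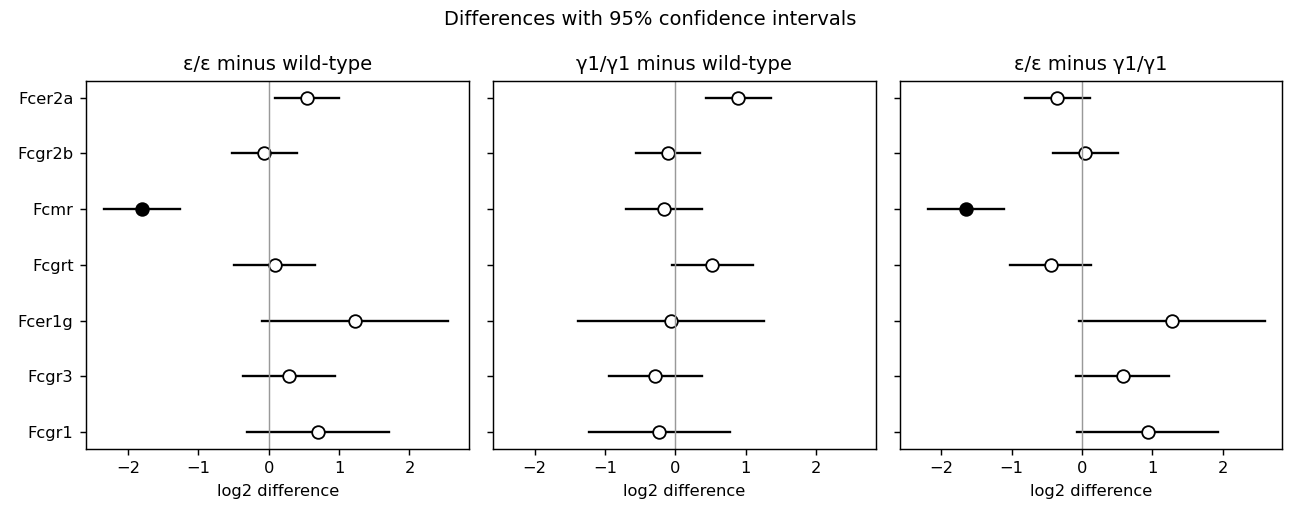
Log2 difference (horizontal axis) with its 95% confidence interval for the 7 receptor genes tested (vertical axis), in the 3 contrasts. Filled points passed at an adjusted p under 0.05 in limma: Fcmr at -1.81 between ε/ε and wild-type and at -1.65 between ε/ε and γ1/γ1.

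The RefSeq promoter table of the GRCm38.p6 build held all 8 genes, with 11 start sites. The 250 bases before the start of Fcmr, on the plus strand at chr1:130865527-130865776, are shown because this is the gene whose differences passed. Capitals mark the letters GAGGAA on either strand, the core bound by PU.1, a transcription factor of B and myeloid cells. This motif was chosen after the sequences were seen.

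Fcmr: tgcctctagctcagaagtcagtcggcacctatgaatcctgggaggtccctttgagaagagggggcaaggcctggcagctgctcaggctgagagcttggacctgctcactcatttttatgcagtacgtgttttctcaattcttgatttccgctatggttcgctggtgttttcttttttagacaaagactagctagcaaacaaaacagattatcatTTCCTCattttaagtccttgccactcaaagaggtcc

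The match begins 36 bases before the start. Of the 32851 start sites in the table, 23.3% hold this motif within 250 bases, and it is a match of letters and not a measured site.

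Of the 12170 genes tested, the 3 with the highest Pearson's r to Fcmr over the 9 arrays were picked. Pearson's r was 0.990 for Smim14, 0.988 for Samd9l and 0.987 for Ccr6, a chemokine receptor of B cells. Without ε/ε replicate 1 the values were 0.989, 0.981 and 0.980 over 8 arrays. Ccr6 read 6.41, 6.98 and 6.57 for ε/ε, 7.51, 8.03 and 7.55 for γ1/γ1, and 7.92, 7.66 and 7.86 for wild-type. These points share the arrays, their genotype and any error of an array, and the values are given as a description.

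**Figure D3:**
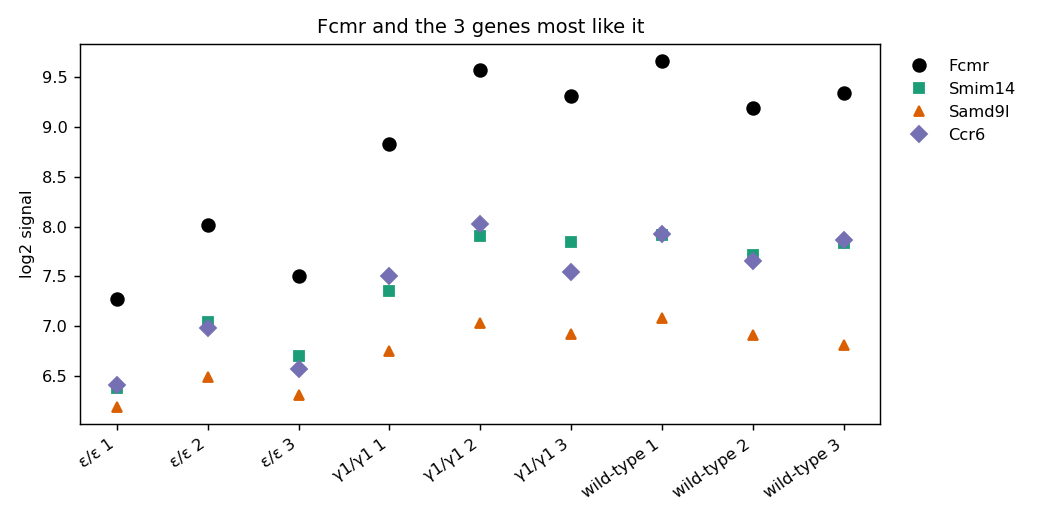
Log2 signal (vertical axis) of Fcmr and of Smim14, Samd9l and Ccr6, the 3 genes with the highest Pearson's r to it, on each of the 9 arrays (horizontal axis, genotype and replicate). For Fcmr the 3 ε/ε arrays lie at 7.27 to 8.01 and the other 6 at 8.83 to 9.66; for Ccr6 they lie at 6.41 to 6.98 and the others at 7.51 to 8.03.

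Fcer2a, the gene of the IgE receptor CD23 (probe set 17507131), was not lower in either altered genotype. It read 9.97, 9.96 and 9.36 on the ε/ε arrays, 9.91, 10.29 and 10.16 on the γ1/γ1 arrays, and 9.51, 9.14 and 9.02 with the wild-type locus. The γ1/γ1 arrays all lay above the wild-type arrays, and the ε/ε arrays overlapped both. The means were 9.76 ± 0.35 (SD, n = 3), 10.12 ± 0.19 and 9.22 ± 0.25 in the same order.

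The difference between γ1/γ1 and wild-type was 0.89 (SE 0.21, 95% confidence interval 0.43 to 1.35), or 1.86-fold. It missed the threshold after adjustment over all genes (limma adjusted p = 0.364), and stood 47th of 12170 by p-value in that contrast. For ε/ε minus wild-type it was 0.54 (interval 0.083 to 1.00, limma adjusted p = 0.141), and for ε/ε minus γ1/γ1 it was -0.35 (interval -0.81 to 0.11, adjusted p = 0.371). The F test over the 3 genotypes gave a limma adjusted p of 0.0744. It was 0.0458 under quantile normalization and 0.0467 with array weights, and at most 0.216 over the alternatives. CD23 is a common marker of follicular B cells in sorting. If it was part of the gate here, its level is not independent of the sort. The list of follicular markers had 4 genes with a probe set, Fcer2a, Zfp318, Cd55 and Ccr7. Of these 0 rose and 2 fell in ε/ε against wild-type (4.02% of all genes tested fell), Zfp318 by 1.98 (limma adjusted p = 0.00150) and Cd55 by 0.95 (adjusted p = 0.0136).

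Fcer2a has 3 start sites in the RefSeq table. The 250 bases before the second, on the minus strand at chr8:3690862-3691111, are shown because they hold the letters TTCNNNNGAA, the spacing bound by STAT6, through which interleukin 4 induces CD23. Capitals mark this motif and TGANTCA, the AP-1 motif, both searched on both strands and chosen after the sequences were seen.

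Fcer2a: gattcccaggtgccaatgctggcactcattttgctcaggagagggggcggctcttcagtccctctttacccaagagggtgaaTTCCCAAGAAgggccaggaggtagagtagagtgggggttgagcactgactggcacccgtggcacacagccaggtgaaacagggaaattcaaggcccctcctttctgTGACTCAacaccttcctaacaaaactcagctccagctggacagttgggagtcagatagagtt

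The STAT6 match begins 168 bases and the AP-1 match 62 bases before the start. Within 250 bases, 5.85% of all start sites hold the first motif and 6.75% the second. No other of the 11 start sites of these genes holds the STAT6 letters in that window.

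The genes most like Fcer2a over the 9 arrays were Entpd6 (Pearson's r = 0.911), Gng10 (0.880) and Sox3 (0.876).

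Fcgr2b, the gene of the inhibitory IgG receptor (probe set 17229607), showed no difference that passed in any contrast. It read 5.56, 6.06 and 5.80 for ε/ε, 5.91, 6.05 and 5.33 for γ1/γ1, and 5.89, 5.73 and 5.99 for wild-type. The 3 groups overlapped. The difference from wild-type was -0.062 in ε/ε (95% confidence interval -0.52 to 0.40, limma adjusted p = 0.890) and -0.11 in γ1/γ1 (interval -0.56 to 0.35, adjusted p = 0.939). For ε/ε minus γ1/γ1 it was 0.044 (interval -0.42 to 0.50, adjusted p = 0.929). The intervals reach no further than 0.56 on the log2 scale in either direction. Fcgr2b and Fcgr3 code for closely related extracellular parts, and how far their probe sets can tell them apart is uncertain. The genes most like Fcgr2b were Casp6 (Pearson's r = 0.905), Hscb (0.898) and Tmed10 (0.883).

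Fcgrt, the FcRn heavy chain, read 6.38, 5.94 and 5.40 for ε/ε, 6.58, 5.99 and 6.47 for γ1/γ1, and 5.98, 5.52 and 5.97 for wild-type. The γ1/γ1 arrays lay above the wild-type arrays by a narrow margin, and the ε/ε arrays overlapped both. The difference was 0.53 between γ1/γ1 and wild-type (95% confidence interval -0.048 to 1.10, limma adjusted p = 0.735) and 0.084 between ε/ε and wild-type (interval -0.49 to 0.66, adjusted p = 0.879). For ε/ε minus γ1/γ1 it was -0.44 (interval -1.02 to 0.13, adjusted p = 0.370). B2m, the light chain of FcRn and of class I molecules, differed from wild-type by 0.19 in ε/ε and by 0.15 in γ1/γ1 (limma adjusted p = 0.350 and 0.839).

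Each of the 4 myeloid receptor genes had its highest signal on ε/ε replicate 1. Fcer1g, the shared signalling chain, read 6.94, 4.77 and 4.001 for ε/ε, 3.70, 3.71 and 4.46 for γ1/γ1, and 4.17, 4.11 and 3.76 for wild-type. Fcgr1, the high-affinity IgG receptor, read 5.53, 3.36 and 3.67 for ε/ε, 3.34, 3.18 and 3.25 for γ1/γ1, and 3.18, 3.67 and 3.59 for wild-type. For both genes the first ε/ε array lay above the other 8, by 2.18 for Fcer1g and by 1.85 for Fcgr1.

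Fcgr3, a low-affinity activating receptor also carried by natural killer cells, read 5.12, 4.07 and 3.78 for ε/ε, 3.75, 3.91 and 3.59 for γ1/γ1, and 4.27, 3.87 and 3.97 for wild-type. Fcgr4, an activating receptor of monocytes, macrophages and neutrophils, read 4.10, 2.62 and 2.75 for ε/ε, 2.75, 2.31 and 2.36 for γ1/γ1, and 2.63, 3.10 and 2.91 for wild-type. On the other 8 arrays Fcgr4 lay below the array medians, and Fcer1g was highest on ε/ε replicate 2, at 4.77. The gap between ε/ε replicate 1 and the highest of the other 8 arrays was 0.85 for Fcgr3 and 0.99 for Fcgr4. Apart from this array, the genotypes overlapped for Fcer1g and Fcgr3. Fcgr1 read 3.36 and 3.67 on ε/ε replicates 2 and 3, above the γ1/γ1 arrays, which reached 3.34, and overlapping wild-type. These Fcgr1 values lay near or below the array medians of 3.53 to 3.69.

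None of the 3 myeloid genes that were tested passed in limma in any contrast, and 0 had an unadjusted p under 0.05. Against wild-type the ε/ε difference was 1.22 for Fcer1g (SE 0.59, 95% confidence interval -0.10 to 2.54, limma adjusted p = 0.237), 0.70 for Fcgr1 (interval -0.30 to 1.71, adjusted p = 0.368) and 0.29 for Fcgr3 (interval -0.37 to 0.95, adjusted p = 0.586). Without ε/ε replicate 1 these differences were 0.37, 0.035 and -0.11 (limma adjusted p = 0.522, 0.942 and 0.779). For γ1/γ1 against wild-type they were -0.057, -0.23 and -0.29 in the same order (adjusted p = 0.990, 0.941 and 0.875), and between ε/ε and γ1/γ1 1.28, 0.93 and 0.58 (adjusted p = 0.266, 0.288 and 0.314). Fcgr1 lay above the median on 3 arrays, the fewest the filter allowed.

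The 4 genes were high on the same array as the markers of macrophages and monocytes. On ε/ε replicate 1, 13 of the 21 markers lay more than 1 log2 unit above the highest of the other 8 arrays. Of the 12 markers tested, 11 had a difference above 0 between ε/ε and wild-type, with a median of 1.21. In limma 0 of them passed, and 5 had an unadjusted p under 0.05. Markers of natural killer cells had mean signals of 3.55 to 3.88 in ε/ε, 3.42 to 3.74 in γ1/γ1 and 3.40 to 3.80 in wild-type, and those of neutrophils 2.90 to 3.04, 3.01 to 3.08 and 2.87 to 3.19. The 7 mast cell and basophil markers, among them Fcer1a and Ms4a2, the other chains of the high-affinity IgE receptor, had means of 2.83 to 2.94, 2.88 to 2.98 and 2.84 to 3.05, below the array medians. The part of these cells in the myeloid receptor signal was not tested. Vcam1, one of the macrophage markers, was among the genes most like Fcer1g (Pearson's r = 0.978 over the 9 arrays), with Plekhb2 (0.980) and Lap3 (0.962). Without ε/ε replicate 1 these were 0.812, 0.862 and 0.641.

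**Figure D4:**
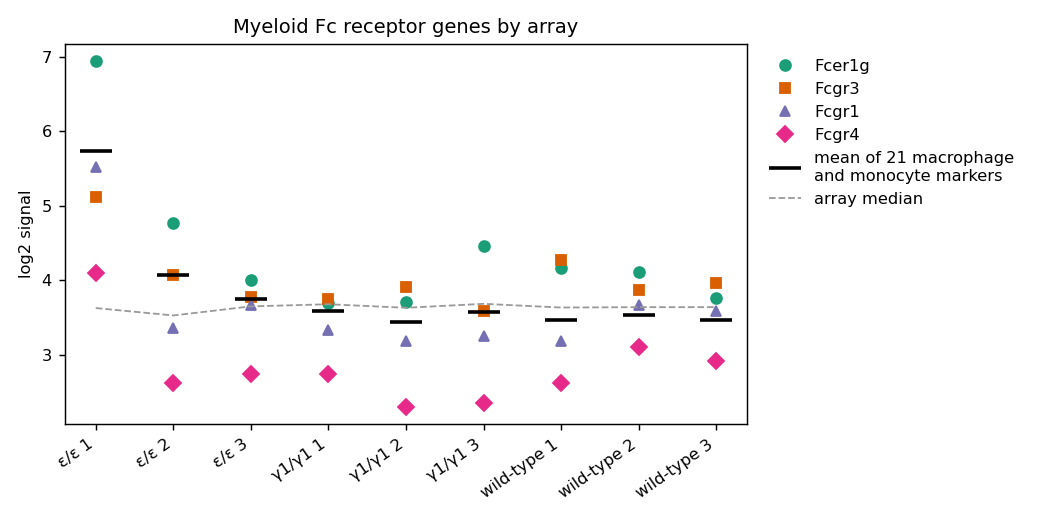
Log2 signal (vertical axis) of Fcer1g, Fcgr3, Fcgr1 and Fcgr4 on each of the 9 arrays (horizontal axis, genotype and replicate), with the mean of 21 macrophage and monocyte markers as a black bar and the array median as a dashed line. On ε/ε replicate 1 the marker mean is 5.74 and Fcer1g 6.94; on the other 8 arrays the marker mean is 3.44 to 4.07 and Fcer1g 3.70 to 4.77.

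The 80 bases before the starts of Fcgr3, Fcgr4 and Fcgr1 are shown because each of these genes was highest on ε/ε replicate 1 and holds the same letters. Capitals mark the PU.1 core, read here on the other strand as TTCCTC. The windows lie at chr1:171059395-171059474 on the minus strand, chr1:171018846-171018925 on the plus strand and chr3:96293970-96294049 on the minus strand.

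Fcgr3: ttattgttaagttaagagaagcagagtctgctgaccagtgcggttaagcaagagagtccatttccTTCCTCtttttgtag
Fcgr4: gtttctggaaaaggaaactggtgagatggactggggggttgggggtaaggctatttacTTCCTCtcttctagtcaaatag
Fcgr1: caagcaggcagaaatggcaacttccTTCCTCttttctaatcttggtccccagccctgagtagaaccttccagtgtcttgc

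The match begins 15 bases before the start in Fcgr3, 22 in Fcgr4 and 55 in Fcgr1. Fcgr3 has another start site close by, with the same match at 6 bases. In windows of 80 bases, 7.97% of all start sites hold it, and in windows of 250 bases 23.3%. Of the 11 start sites of the receptor genes 5 hold it, the same 5 in either window. The 2 starts of Fcgr3, which share their match, are among the 5, and the motif was chosen after the sequences were seen. Another is the start of Fcmr, whose lowest value, 7.27, was on ε/ε replicate 1. Fcer1g, whose highest value was on that array, has no match within 250 bases.

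Relatives of these receptors gave no call. Of 12 listed, 7 were tested, and 0 rose and 0 fell in limma in each of the 3 contrasts, with 2 at an unadjusted p under 0.05 between ε/ε and wild-type and 0 in the other contrasts. Their median difference in that contrast was 0.040. The smallest p-values there belonged to Fcrla, an Fc receptor-like protein inside B cells, which read 7.21 in ε/ε and 8.12 in wild-type (difference -0.91, SE 0.29, adjusted p = 0.0910), and to Fcamr, a receptor for IgA and IgM (-0.53, adjusted p = 0.196). In γ1/γ1 the differences of Fcrla and Fcrl1 from wild-type were -0.49 and 0.17 (limma adjusted p = 0.790 and 0.875). In ε/ε against γ1/γ1 those of Fcamr and Fcrla were -0.42 and -0.42 (adjusted p = 0.346 and 0.458).

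The partners and inducers of CD23 gave no call either. Of 12 listed, 8 were tested and 0 rose or fell in limma in the 3 contrasts. At an unadjusted p under 0.05 there were 2 between ε/ε and wild-type, 1 between γ1/γ1 and wild-type and 0 between ε/ε and γ1/γ1. The median differences were 0.11, 0.048 and -0.048. Stat6 and Jak1, which carry the interleukin 4 signal, differed from wild-type by 0.41 and -0.32 in ε/ε (limma adjusted p = 0.128 and 0.163) and between ε/ε and γ1/γ1 by 0.30 and -0.24 (adjusted p = 0.300 and 0.335). Cr2, the complement receptor that binds CD23, and Il4ra, the interleukin 4 receptor, differed between γ1/γ1 and wild-type by 0.41 and -0.27 (adjusted p = 0.524 and 0.839). Adam10, the protease that sheds CD23, differed from wild-type by -0.016 in ε/ε and by -0.055 in γ1/γ1 (adjusted p = 0.952 and 0.950).

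The list for inhibitory signalling through Fcgr2b also holds genes of the activating B cell receptor pathway that it opposes, Blnk among them. Of its 17 genes, 14 were tested, and 1 rose and 1 fell in ε/ε against wild-type, where 6.34% of all genes tested passed. Blnk, the adaptor that links Syk to phospholipase C, rose from 8.35 to 9.14 (difference 0.79, SE 0.15, limma adjusted p = 0.0156). Rasa1, a GTPase activator that turns off Ras, fell by 0.76 from 7.99 to 7.23 (SE 0.15, adjusted p = 0.0167). Without wild-type replicate 2 or 3 neither gene passed (limma adjusted p = 0.0705 and 0.0613 for Blnk, 0.0721 and 0.0528 for Rasa1). Inpp5d, which codes for SHIP-1, differed by 0.52 (adjusted p = 0.203). The median of the list was 0.052. In the contrast of γ1/γ1 with wild-type 0 of 14 passed in limma and 1 had an unadjusted p under 0.05, with Fyn at -0.51 and Shc1 at 0.30 (adjusted p = 0.515 and 0.727). In that of ε/ε with γ1/γ1 0 passed and 5 had an unadjusted p under 0.05, with Blnk at 0.64 and Rasa1 at -0.55 (adjusted p = 0.0512 and 0.0741).

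Of 14 genes of the activating pathway, which runs from the paired tyrosine motif (ITAM) of Fcer1g to the NADPH oxidase, 11 were tested, and 2 rose and 0 fell in ε/ε against wild-type, where 2.33% of all genes tested were called higher and 4.02% lower. Syk, the kinase that binds the motif, rose from 7.28 to 8.005 (difference 0.73, SE 0.17, limma adjusted p = 0.0377). Lcp2, the adaptor SLP-76 of myeloid and T cells, rose from 3.78 to 4.89 (difference 1.11, SE 0.28, adjusted p = 0.0476). Without ε/ε replicate 1 both missed the threshold, at differences of 0.72 and 0.78 (limma adjusted p = 0.0815 and 0.0871). Syk also missed it without each other array except γ1/γ1 replicate 1 and wild-type replicate 1, and Lcp2 without each other array except ε/ε replicate 3. Over 19 alternatives Syk passed in 8 and ranged up to an adjusted p of 0.128. Lcp2 passed in 7 of 18 and ranged up to 0.162. Vav1 was higher in ε/ε than in γ1/γ1 by 0.87 (SE 0.20, adjusted p = 0.0480), and passed in 6 of 19 alternatives (up to 0.212), missing without each array except ε/ε replicate 3 and γ1/γ1 replicate 2. For γ1/γ1 against wild-type 0 of 11 passed in limma and 1 had an unadjusted p under 0.05, with Cybb at 0.45 and Syk at 0.37 (adjusted p = 0.648 and 0.727). The median differences were 0.21, 0.018 and 0.19 for ε/ε against wild-type, γ1/γ1 against wild-type and ε/ε against γ1/γ1. Syk also serves the B cell receptor, and Plcg2 is on both this list and the preceding one. Fcer1g had a mean of 4.02 in wild-type. Which receptor the differences of this list belong to was not tested.

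**Figure D5:**
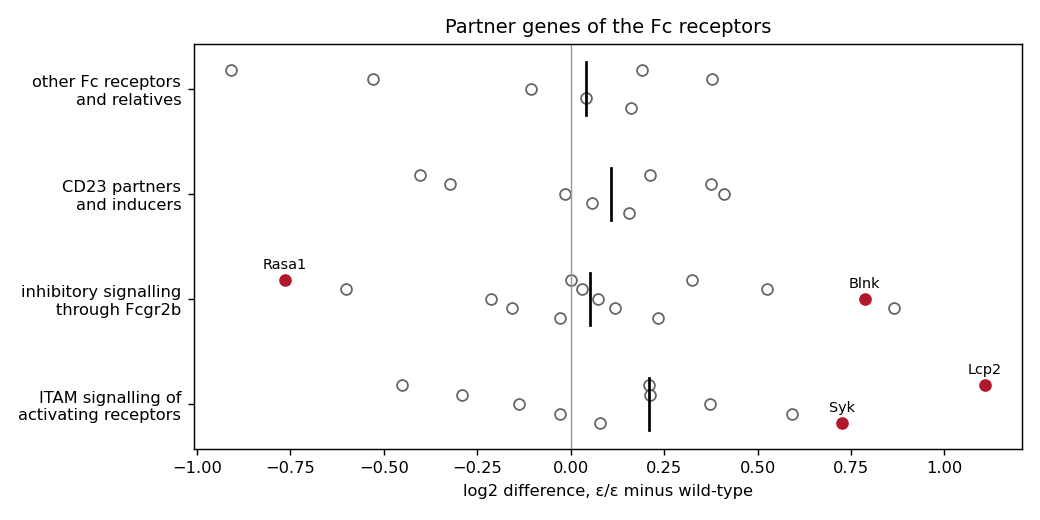
Log2 difference between ε/ε and wild-type (horizontal axis) of the tested genes of 4 partner lists (vertical axis). Each point is a gene, filled where it passed at an adjusted p under 0.05 in limma, and black bars mark list medians. Blnk, Syk and Lcp2 lie at 0.79, 0.73 and 1.11 and Rasa1 at -0.76.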

How the data were processed

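Biotin-labelled cDNA from TRIzol-extracted RNA, amplified with a Nugen PicoWTA kit per the labels' protocols, was measured on 9 arrays. The authors' deposited values for 41345 probe sets are on a log2 scale, judged by their range. R 3.3.1 appears in the submitters' processing notes, but how background and normalization were handled is not given in the sources used here. Precision is limited by the number of arrays. Background compresses fold changes of dim genes.

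Probe sets with 1 symbol in the platform annotation (23521) named 22180 genes, each by its brightest probe set. Genotype means over all 9 arrays were fitted and moderated (eBayes) with limma 3.58.1 in R 4.3.3, which left 6 residual degrees of freedom. P-values were adjusted by Benjamini-Hochberg over the 12170 genes tested, at 0.05. Unless another test is named, adjusted p is limma's. The script was tested on simulated data. Figures were drawn with matplotlib 3.10.9.

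All receptor genes were named. For each partner list, up to 4 genes that passed with the largest difference were named, or else the 2 with the smallest p. Adam10, Inpp5d and B2m were named besides for their role. For Fcer2a, Fcgr2b, Fcmr and Fcer1g, the 3 tested genes with the highest Pearson's r were named. Members and lists were chosen with earlier results of these data known. Same-numbered arrays of 2 genotypes deviated from their group means with correlations of -0.091 to 0.16, and 1 of 9 exceeded 0.1, so the replicate numbers were not used as pairs.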

Additional observations from a re-analysis of the deposited data

How the results depend on the processing

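The fall of Fcmr passed under all 20 alternatives against wild-type (-2.02 to -1.64, adjusted p 0.00252 to 0.0228) and under 19 of 20 against γ1/γ1 (-1.85 to -1.48, adjusted p 0.00606 to 0.0548). With only the 6 arrays compared, 0 receptor genes passed against γ1/γ1. In the F test 2 passed under quantile normalization and with array weights, Fcer2a being the other. With the replicate number as a block, Fcmr kept both calls (adjusted p = 0.0105 and 0.0219), and no call of a receptor gene changed. The block left 0 genes that passed between γ1/γ1 and wild-type, where 5 passed without it.

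Counts over all genes moved more. Between ε/ε and wild-type 772 genes passed, 1184 with all probe sets fitted, 424 with the 6 arrays compared, and 186 to 789 with 1 array left out. Between γ1/γ1 and wild-type 27 passed with all probe sets, 0 with the 6 arrays, 3 with the 7 arrays of high Xist and 0 to 6 with 1 array left out. Between ε/ε and γ1/γ1 324 passed, 745 with all probe sets, 56 with the 6 arrays, 88 with the 7 arrays and 122 to 330 with 1 array left out. The cause was not tested.

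Differences that missed the threshold changed sign as follows. For ε/ε against wild-type, Fcgr2b was 0.028 under quantile normalization and 0.062 with the 7 arrays of high Xist. Fcgr3 was -0.11 with those 7 arrays. Fcgrt was -0.027 with array weights and -0.15 with the 7 arrays. Between γ1/γ1 and wild-type, Fcmr was 0.042 and Fcer1g 0.071 with the 7 arrays, and Fcer1g 0.024 with array weights. With 1 array left out in turn, Fcgr2b ranged from -0.19 to 0.062, Fcgr3 from -0.11 to 0.56 and Fcgrt from -0.15 to 0.33 between ε/ε and wild-type. Between γ1/γ1 and wild-type, Fcgr2b ranged from -0.25 to 0.11, Fcmr from -0.33 to 0.042 and Fcer1g from -0.31 to 0.071, and between ε/ε and γ1/γ1 Fcgr2b ranged from -0.17 to 0.19. With 9 arrays and many dim myeloid genes, differences near the array median are poorly resolved.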
